A study of Homo sapiens with 6 samples.

Results

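Receptor tyrosine kinases and the growth factors that bind them were examined in human melanoma cells of the A375 line after knockout of RIPK4, a serine/threonine kinase. The set was taken by gene name and held 47 genes, 30 receptors or receptor-like proteins and 17 ligands or FGF homologous factors, out of 20851 genes in the deposited table. It covered receptors for PDGF, FGF, VEGF, angiopoietin, HGF, collagen and neurotrophins, and TYRO3 and MERTK of those for GAS6. The FGF, PDGF, VEGF, HGF and KIT ligands were included, and the ERBB, Eph, insulin and AXL receptors were left out. The table listed 42 of the 47 genes, and 33 of these 42 had enough counts to be tested. KIT, ROR2, RET, FGF9 and FGF11 were not analysed here.

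The study sequenced poly(A) RNA of 3 replicates of A375 RIPK4.KO (the knockout) and 3 of A375 neg (the controls). Both carried lentiviral CRISPR/Cas9 constructs, with a guide against RIPK4 in A375 RIPK4.KO and a nontargeting guide, labelled as a GFP control, in A375 neg. A375 RIPK4.KO was 1 clone (clone #1), so the knockout and other properties of that clone cannot be told apart, and p-values measure the spread between replicates of that clone and its control. The study describes the replicates as independent and biological but names no separate derivation of the cells.

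Receptor tyrosine kinases span the cell membrane. A ligand brings receptor chains together, the kinase domains phosphorylate each other, and adaptor proteins that dock on the phosphorylated tails pass the signal to the RAS-MAPK, PI3K and PLC-gamma routes. In melanocytes, KIT ligand, HGF and FGF2 are classical survival and growth signals, and in melanoma the PDGF, FGF and MET receptors are known for their part in resistance to BRAF inhibitors. A375 carries an activating BRAF mutation, which drives the MAPK route below the receptors.

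The largest rise among the genes of the set that were tested was that of FGF5, a secreted FGF, and a pair of VEGF receptors moved in opposite directions, KDR up and FLT1 down. The 250 bases before the start of these 3 genes are shown here because they lie directly upstream of the genes that differed in these ways. The sequences are from RefSeq (GRCh38.p14), 5′ to 3′ on the strand of the gene, and 8 of the 12 changed genes described below had such a window at the start of the RefSeq gene. FGF5 is on the plus strand (chr4:80266338-80266587), KDR on the minus strand (chr4:55125596-55125845) and FLT1 on the minus strand (chr13:28495129-28495378). Capitals mark exact matches on either strand to TATAAA (named the TATA box), GGGCGG (the GC box) and TGACGTCA (cyclic AMP response element).
FGF5: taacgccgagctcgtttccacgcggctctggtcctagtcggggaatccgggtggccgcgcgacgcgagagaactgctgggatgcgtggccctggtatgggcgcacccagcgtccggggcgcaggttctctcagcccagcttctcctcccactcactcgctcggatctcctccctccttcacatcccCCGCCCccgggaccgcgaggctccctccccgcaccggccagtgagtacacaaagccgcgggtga
KDR: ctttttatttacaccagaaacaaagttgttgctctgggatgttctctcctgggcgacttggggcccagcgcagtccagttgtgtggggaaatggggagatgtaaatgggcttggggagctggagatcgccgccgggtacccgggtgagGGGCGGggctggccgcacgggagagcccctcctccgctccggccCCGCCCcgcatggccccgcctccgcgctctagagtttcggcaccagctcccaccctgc
FLT1: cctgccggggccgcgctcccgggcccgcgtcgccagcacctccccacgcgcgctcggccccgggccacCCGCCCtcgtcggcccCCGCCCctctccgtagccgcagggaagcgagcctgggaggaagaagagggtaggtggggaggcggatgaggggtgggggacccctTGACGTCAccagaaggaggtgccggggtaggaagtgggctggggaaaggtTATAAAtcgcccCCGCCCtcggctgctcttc

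The FGF5 window held 1 GC box, beginning 64 bases before the start. That of KDR held 2 GC boxes, 102 and 58 bases before the start. FLT1 had 3 GC boxes, a TATA box 31 bases before the start and a cyclic AMP response element 81 bases before it. None of the 3 windows held the CCAAT box, the ETS core CGGAAG, the AP-1 site TGANTCA, the TEAD core GGAATG or the E-box CACGTG, which were also searched on both strands. Of 35116 RefSeq windows of 250 bases, 42.6% held a GC box, 10.7% a TATA box and 1.65% the cyclic AMP response element. The other motifs were held by 32.0% (CCAAT), 16.5% (ETS), 6.57% (AP-1), 11.9% (TEAD) and 6.34% (E-box). No matches overlapped in the 3 windows. These matches describe the letters of the windows and say nothing of which factors bind there.

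The libraries held 21882863 to 26694140 counts, and RIPK4 itself checked the labels. Its raw counts were 319, 368 and 404 in A375 neg against 42, 51 and 61 in A375 RIPK4.KO, and the log2 fold change was -2.69 ± 0.17 (SE, adjusted p = 1.01e-05 by edgeR's quasi-likelihood test). Replicate 2 of A375 RIPK4.KO stood apart on the second principal component, at -34.6 against 25.7 and 14.1 for the other knockout replicates, and its long genes were lower and its short genes higher than in the rest. SOX10, the neural crest and melanocyte lineage factor, was high in every library (7448 to 10056 counts), and PMEL and TYRP1 had at most 22 and 8 counts. The 5 of 8 melanocyte lineage markers that were listed summed to 385 to 416 CPM in A375 neg and 332 to 349 CPM in A375 RIPK4.KO, most of it SOX10. Of them S100B was called lower (log2 fold change -0.89, adjusted p = 0.0360). MITF was lower as well (-0.44, adjusted p = 0.0449) but under the 1.5-fold limit used below. The part of these markers in the results was not tested. MLANA, TYR and DCT were not analysed here. Genes with an adjusted p below 0.05 that differed 1.5-fold or more were called changed. Over all 14443 genes tested this held for 9.04%, with 4.39% higher and 4.65% lower in A375 RIPK4.KO.

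Of the 33 receptors and ligands tested, 12 were called changed, 10 higher and 2 lower (36.4% of those tested, against the 9.04% of all genes). The genes were chosen with earlier results of these data known, so this share is a description only. The median log2 fold change of the 33 was 0.27, and that of all genes tested lay at 0.00 after rounding. Without the fold limit 14 of the 33 had an adjusted p below 0.05, against 16.6% of all genes tested. For 20 of the 33, all normalized counts of one group lay above those of the other, a pattern that 36.5% of all genes tested showed. The 20 include NTRK2 and PDGFRL, which passed the low-count filter only with the A375 neg libraries, in which they were higher. Fits that left out 1 library called between 6 and 11 of the genes, the lowest number without A375 neg replicate 2 or without A375 RIPK4.KO replicate 3. Ligands and FGF homologous factors made up 7 of the 12 calls, all higher, from 12 tested, and receptors made up 5, from 21 tested. Of these 5 receptors, NTRK2 passed the low-count filter only with the A375 neg libraries, in which it was higher. The difference between the 2 kinds was not tested. In bulk RNA, fewer cells of a type and less RNA per cell cannot be told apart.

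**Figure D1:**
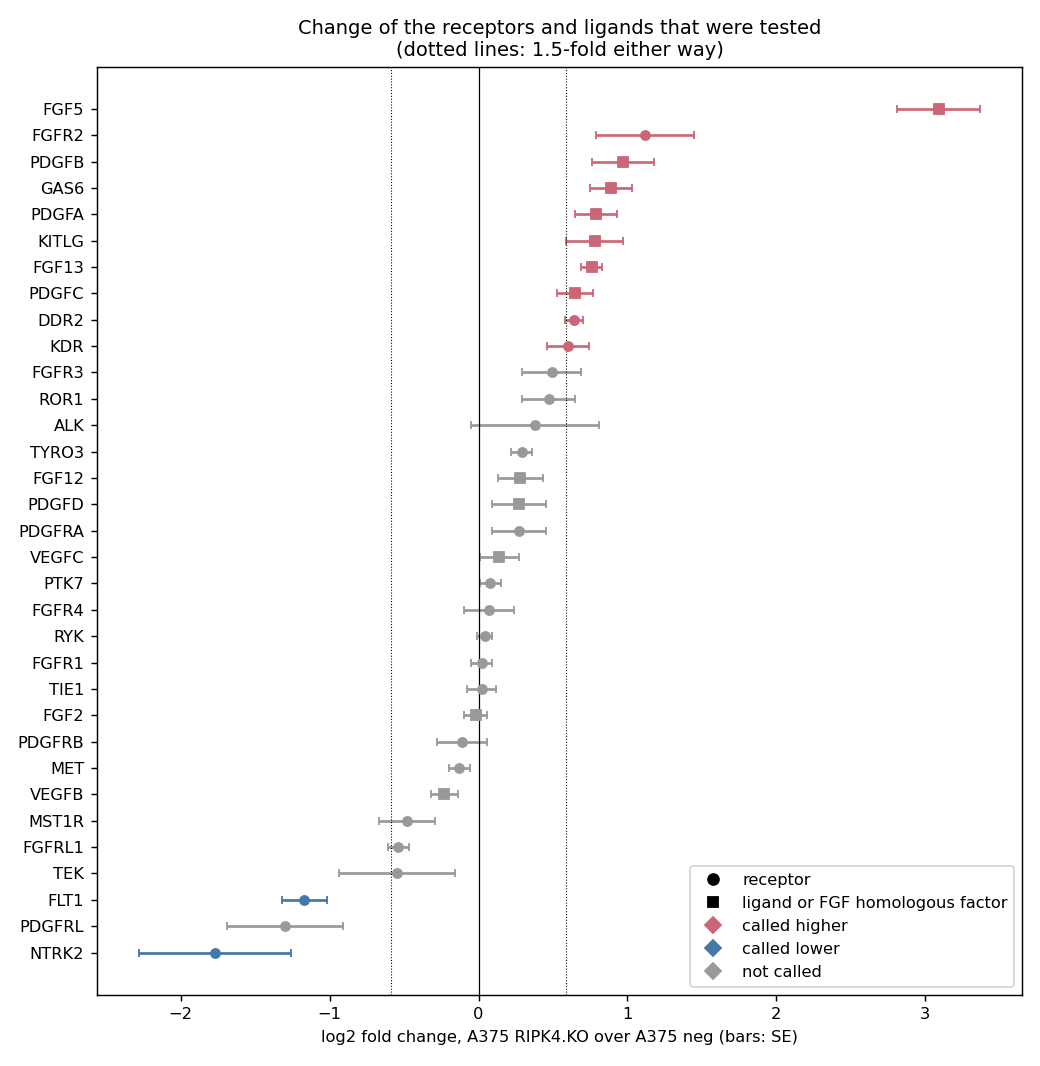
Log2 fold change of the 33 genes tested, A375 RIPK4.KO over A375 neg, with SE bars and dotted lines at 1.5-fold. FGF5 lies far to the right at 3.09 and NTRK2 and FLT1 are the called genes on the left, while MET, FGFR1, FGF2 and RYK sit within 0.13 of 0.

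Levels were compared between genes as CPM per kb of exon, averaged over the 6 libraries. The ranges also span the 6 libraries, so for a changed gene they include the difference between the groups. MET, the HGF receptor, and VEGFB, a ligand of FLT1, stood highest at 34.6 ± 2.3 and 34.2 ± 3.8 (SD, n = 6), and their ranges overlapped. FGFRL1, an FGF receptor without a kinase domain, followed at 21.6 and RYK, a Wnt co-receptor whose kinase is inactive, at 13.3, each clear of its neighbours. VEGFC, DDR2, FGF2, TYRO3 and FGFR1 formed a run from 9.70 to 5.26 in which each overlapped the next over the 6 libraries. Within the groups DDR2 and FGF2 changed order. DDR2 was lower in the controls (6.19 ± 0.057 against 7.18 ± 0.45, SD, n = 3) and higher in the knockout (9.63 ± 0.39 against 7.09 ± 0.59). PTK7 stood at 3.36, clear of FGFR1 but not of PDGFA below it. The 19 genes from PDGFA (3.11) to PDGFRA (0.367) each overlapped the next over the 6 libraries, which does not show overlap within a group. TEK, FGFR2, ALK and NTRK2 were lowest, from 0.163 down to 0.0388.

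**Figure D2:**
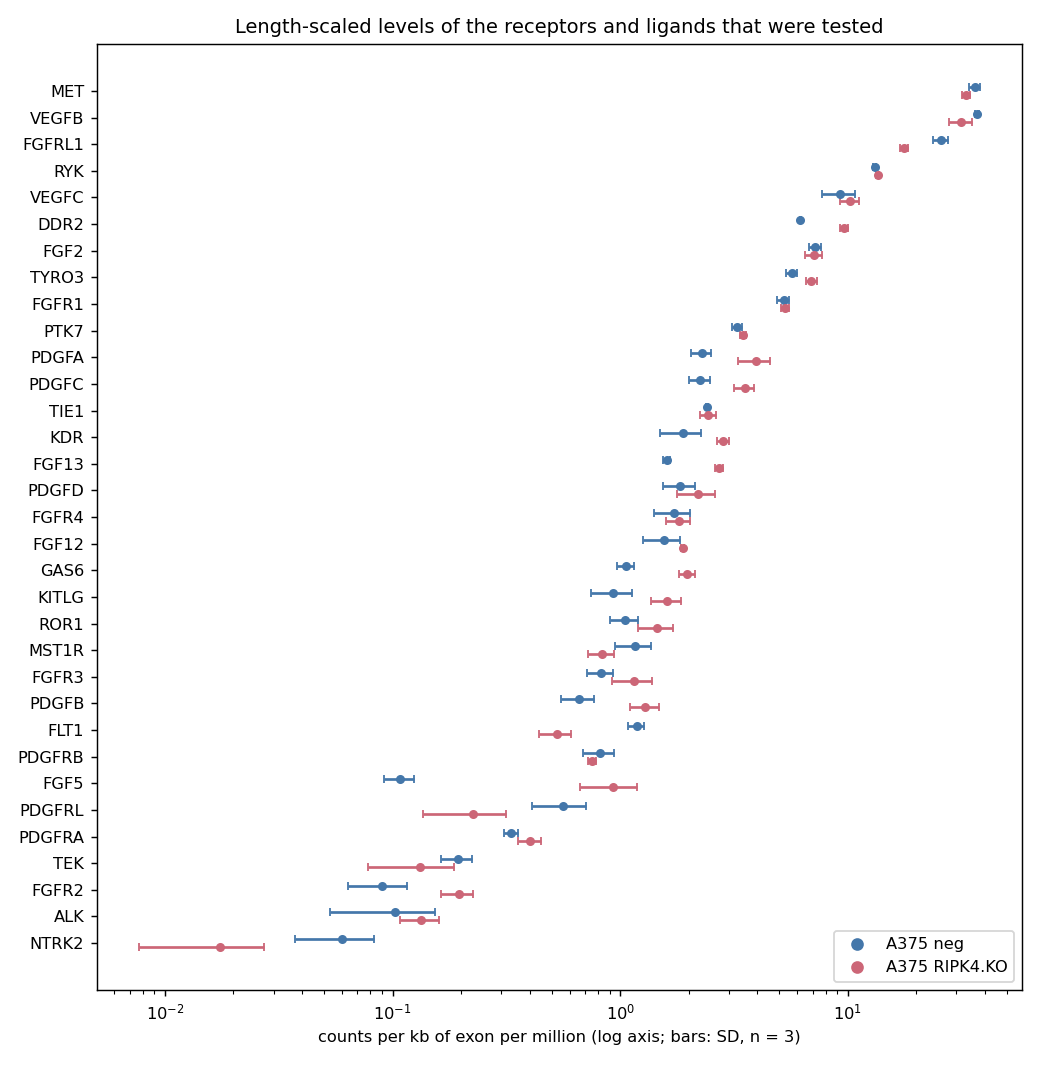
Length-scaled level of each gene tested (CPM per kb of exon, log axis), mean with SD over 3 libraries per group, in order of the mean over all 6. MET and VEGFB are at the top at over 30 in both groups, and FGF5 moves from 0.108 in A375 neg to 0.926 in A375 RIPK4.KO.

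The FGF ligands held the gene that moved furthest. FGF5, a secreted FGF that ends the growth phase of the hair cycle, had raw counts of 14, 20 and 16 in the controls and 148, 89 and 152 in the knockout. Every knockout library was above every control library, and replicate 2 of the knockout was the lowest of its group. It rose in normalized counts from 15.9 ± 2.29 to 136 ± 37.7 (SD, n = 3), 8.52-fold, with a log2 fold change of 3.09 ± 0.28 (SE, adjusted p = 0.000112). FGF2, the basic FGF that melanocytes need in culture, had 1133, 1268 and 1348 counts in the controls and 1077, 1035 and 1259 in the knockout. The groups overlapped (log2 fold change -0.02 ± 0.08, adjusted p = 0.908). The ratio of FGF5 to FGF2 per kb of exon was 0.0134 to 0.0178 in the controls and 0.0971 to 0.155 in the knockout, so FGF5 was below FGF2 in every library. FGF1 and FGF18 were too low to be tested, with at most 18 and 7 counts in a library.

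FGF12 and FGF13 belong to the FGF homologous factors, which stay inside the cell, bind voltage-gated sodium channels and do not act as classical ligands. FGF13 had 782, 907 and 860 counts in the controls and 1199, 1352 and 1391 in the knockout, with no overlap. Its normalized count rose from 811 ± 27.1 to 1377 ± 57.9 (SD, n = 3; log2 fold change 0.76 ± 0.07, adjusted p = 8.66e-05). The antisense gene FGF13-AS1, which shares 5166 bases with it on the other strand, averaged 27.2 counts, and the strand setting of the counting is not given in the sources used here. FGF12 stood at 279 ± 52.7 and 338 ± 5.45 normalized counts (log2 fold change 0.28 ± 0.15, adjusted p = 0.241).

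Among the FGF receptors, FGFR1 was the main one per kb of exon (5.22 in the controls and 5.30 in the knockout) and FGFR4, FGFR3 and FGFR2 were lower in both groups. FGFR1 had 1598 to 1995 raw counts, with overlapping groups and a log2 fold change of 0.02 ± 0.07 (adjusted p = 0.867). FGFR2 had 20, 12 and 20 counts in the controls and 34, 29 and 41 in the knockout. All knockout libraries were above all controls, at low counts. Normalized, it rose from 16.7 ± 4.89 to 36.3 ± 5.70 (SD, n = 3), with a log2 fold change of 1.12 ± 0.33 and an adjusted p of 0.0477. That call was lost with no low-count filter (adjusted p = 0.0610), with DESeq2 (0.0902) and on leaving out any 1 library other than replicate 2 of A375 RIPK4.KO (0.0744 to 0.163).

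The remaining kinase receptors for FGFs did not pass the test. FGFR3 had a log2 fold change of 0.49 ± 0.20 (adjusted p = 0.140) and FGFR4 one of 0.07 ± 0.17 (adjusted p = 0.833). FGFRL1, which binds FGFs but cannot phosphorylate, had 2405, 2855 and 2936 counts in the controls and 1681, 1747 and 1682 in the knockout. The groups lay well apart, and the normalized count differed by a factor of 1.46 (2606 ± 190 against 1789 ± 72.5, SD, n = 3; log2 fold change -0.54 ± 0.07, adjusted p = 0.000840). It was therefore under the fold limit, and was called only on leaving out replicate 1 of A375 neg (-0.60, adjusted p = 0.00192).

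Of the 4 PDGF ligands 3 rose, and neither PDGF receptor passed the test. PDGFs are secreted dimers that act on mesenchymal and glial cells through PDGFRA and PDGFRB. PDGFA had 223, 234 and 273 counts in the controls and 352, 330 and 466 in the knockout. The knockout libraries were all higher, replicate 3 most of all. The normalized count rose from 232 ± 23.1 to 401 ± 65.5 (SD, n = 3), with a log2 fold change of 0.79 ± 0.14 (adjusted p = 0.00558).

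PDGFB had 50, 66 and 75 counts in the controls and 94, 113 and 135 in the knockout, again without overlap. It rose from 60.6 ± 10.5 to 119 ± 17.1 normalized counts (SD, n = 3; log2 fold change 0.97 ± 0.21, adjusted p = 0.0127). PDGFC, which needs its CUB domain to be cut off before it binds PDGFRA, had 304, 301 and 360 counts in the controls and 395, 467 and 522 in the knockout. All 3 knockout libraries exceeded the controls. It rose in normalized counts from 308 ± 32.1 to 483 ± 48.9 (SD, n = 3; log2 fold change 0.65 ± 0.12, adjusted p = 0.00516). PDGFD, the ligand of PDGFRB that is activated in the same way, had 159 to 230 counts in the controls and 184 to 263 in the knockout, so the groups overlapped (log2 fold change 0.27 ± 0.18, adjusted p = 0.375).

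Leaving out replicate 2 of A375 neg or replicate 3 of A375 RIPK4.KO ended the calls of PDGFB (adjusted p = 0.0510 and 0.0587) and of PDGFC, whose log2 fold change was then 0.58 in both fits, under the fold limit. Summed over the 4 ligands, the normalized count was 735.9, 749.8 and 889.1 in the controls and 1149, 1224 and 1325 in the knockout.

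PDGFRA and PDGFRB were low, at 0.367 and 0.783 CPM per kb of exon. PDGFRA had 79 to 87 counts in the controls and 87 to 99 in the knockout, a log2 fold change of 0.27 ± 0.18 (adjusted p = 0.374). PDGFRB had 117 to 168 and 116 to 136, with a log2 fold change of -0.11 ± 0.17 (adjusted p = 0.703). PDGFRL, a secreted protein that resembles the PDGF receptor but has no kinase, had 40, 25 and 38 counts in the controls and 12, 18 and 8 in the knockout. Its groups did not overlap and its log2 fold change was -1.30 ± 0.39, with an adjusted p of 0.0533 that missed the threshold. With the trend on gene length removed (0.0313) or without replicate 2 of A375 RIPK4.KO (0.0282) the adjusted p passed it. The minimum of the low-count filter was reached in 3 A375 neg and 2 A375 RIPK4.KO libraries. PDGFRL thus passed the filter only with the group in which it was higher, and its values are a description. CSF1R, a relative of the PDGF receptors that macrophages use, had at most 12 counts and was not tested.

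KITLG, the stem cell factor that supports melanocytes through KIT, had 136, 126 and 184 counts in the controls and 200, 219 and 282 in the knockout. The lowest knockout library was above the highest control. Normalized, it rose from 142 ± 29.7 to 244 ± 36.3 (SD, n = 3; log2 fold change 0.78 ± 0.19, adjusted p = 0.0209). The call was lost without replicate 1 or 2 of A375 neg or replicate 3 of A375 RIPK4.KO (adjusted p 0.0773 to 0.0809). Its receptor KIT was not analysed here.

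The VEGF receptors moved in opposite directions. KDR, the main signalling receptor for VEGFA in endothelium, had 374, 291 and 279 counts in the controls and 391, 452 and 463 in the knockout. The knockout libraries were higher, and replicate 1 of A375 neg was nearest to them. KDR rose from 302 ± 62.2 to 456 ± 25 normalized counts (SD, n = 3), with a log2 fold change of 0.60 ± 0.14 (adjusted p = 0.0216), just past the fold limit. It lost its call without replicate 2 or 3 of A375 neg or replicate 3 of A375 RIPK4.KO (adjusted p 0.0693 to 0.0908), and without replicate 2 of A375 RIPK4.KO its log2 fold change was 0.57.

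FLT1, which binds VEGFA tightly but signals weakly, had 398, 384 and 363 counts in the controls and 123, 178 and 164 in the knockout. Each knockout library was below every control. The normalized count fell from 365 ± 28.7 to 162 ± 25.9 (SD, n = 3), 2.25-fold, with a log2 fold change of -1.17 ± 0.15 (adjusted p = 0.000690). Within a library, the ratio of FLT1 to KDR per kb of exon was 0.556, 0.689 and 0.679 in the controls and 0.164, 0.206 and 0.185 in the knockout. This ratio does not depend on how the libraries were scaled to one another.

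Because these receptors are known from endothelium, its markers were read beside them. Of 6 endothelial markers 4 were listed, and their summed level was 1.30 to 1.58 CPM in A375 neg and 0.372 to 0.668 CPM in A375 RIPK4.KO. PECAM1 had 21, 23 and 24 counts in the controls and 4, 5 and 5 in the knockout, and CDH5, VWF and EMCN had at most 14, 5 and 4 counts in any library. ERG and CLDN5 were not analysed here. The part of these markers in the FLT1 result was not tested.

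The other endothelial receptors showed no call. TIE1, an orphan partner of TEK, had 353 to 435 counts with overlapping groups (log2 fold change 0.02 ± 0.10, adjusted p = 0.913). TEK, the angiopoietin receptor, had 20 to 28 counts in the controls and 8 to 21 in the knockout (log2 fold change -0.55 ± 0.39, adjusted p = 0.391). FLT4, the receptor for VEGFC on lymphatic vessels, had at most 14 counts and was not tested.

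VEGFB, which binds FLT1 and not KDR, had 1380, 1512 and 1508 counts in the controls and 1082, 1285 and 1045 in the knockout. The groups did not overlap after normalization, and the log2 fold change was -0.23 ± 0.09 (adjusted p = 0.113). VEGFC had 459 to 670 and 492 to 626 counts (log2 fold change 0.14 ± 0.13, adjusted p = 0.504).

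**Figure D3:**
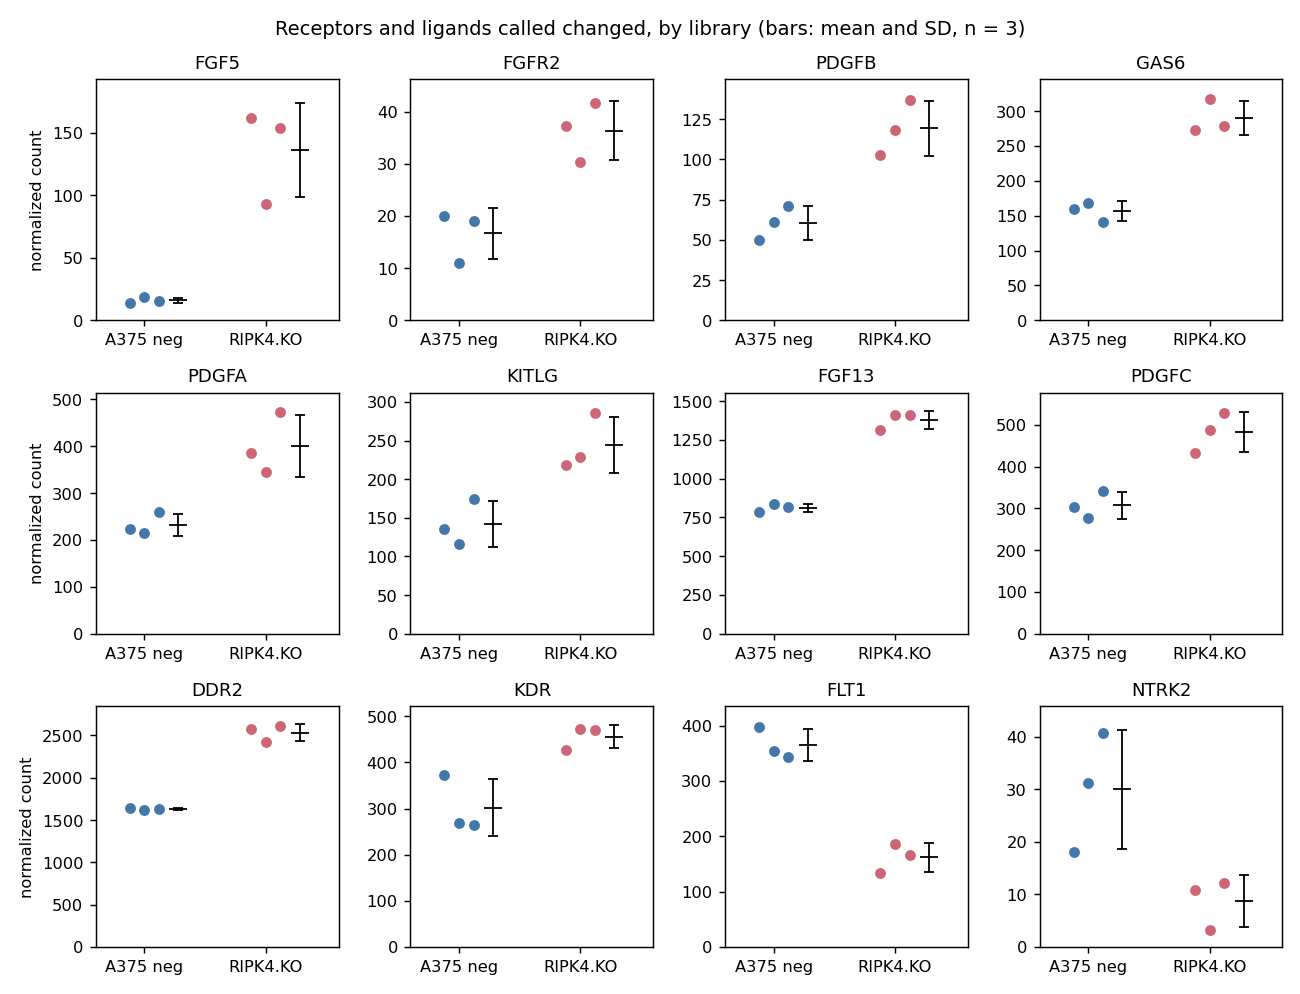
Normalized count per library of the 12 genes called changed, with the mean and SD of the 3 libraries per group beside the points, each axis starting at 0. The first 10 panels have all knockout points above the controls, and the FLT1 and NTRK2 panels show the reverse.

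MET was the most abundant receptor of the set and was not called. It had 6058, 6517 and 7015 counts in the controls and 5056, 5377 and 5910 in the knockout. After normalization the groups stood next to each other without overlap, at 6236 ± 358 and 5710 ± 248 (SD, n = 3; log2 fold change -0.13 ± 0.07, adjusted p = 0.235). Its ligand HGF had 0 to 3 counts, at or under the floor of 3 counts per library, so HGF was not detectable above that floor at this depth. MST1R, the receptor for macrophage-stimulating protein, had 126 to 175 counts in the controls and 92 to 112 in the knockout (log2 fold change -0.48 ± 0.19, adjusted p = 0.134).

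DDR2, a receptor for fibrillar collagen, rose with the smallest SE of the called receptors. Its counts were 1645, 1753 and 1722 in the controls and 2360, 2316 and 2572 in the knockout. The controls differed little from each other and all knockout libraries were above them. The normalized count rose from 1631 ± 15 to 2535 ± 103 (SD, n = 3), 1.55-fold (log2 fold change 0.64 ± 0.06, adjusted p = 0.000111). Relative to FGFR1 in the same library, DDR2 per kb of exon was 1.13 to 1.29 in the controls and 1.65 to 1.91 in the knockout.

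DDR1, the other collagen receptor, could not be read from its own entry. The entry held 0 to 5 counts, and 5 further entries named for copies of the gene took the rest. The sum over all 6 entries, chosen after their values were seen, was 387, 440 and 501 counts in the controls and 359, 331 and 427 in the knockout. Normalized, these sums were 422 ± 46.4 and 390 ± 43.8 (SD, n = 3), and the groups overlapped.

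The Wnt-binding receptors were not called. ROR1, a WNT5A receptor with little kinase activity, had 165 to 200 counts in the controls and 177 to 270 in the knockout (log2 fold change 0.47 ± 0.18, adjusted p = 0.105). PTK7 and RYK, pseudokinases that act with Frizzled, had log2 fold changes of 0.08 ± 0.07 and 0.04 ± 0.05 (adjusted p = 0.505 and 0.671).

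NTRK2 (TrkB), the BDNF receptor, was low in every library and lower in the knockout. It had 18, 34 and 43 counts in the controls and 10, 3 and 12 in the knockout, with no overlap and a wide spread in both groups. The minimum of the low-count filter was reached in 3 A375 neg and 2 A375 RIPK4.KO libraries. NTRK2 thus passed the filter only with the group in which it was higher, and its call is a description. The normalized count fell from 30.0 ± 11.4 to 8.74 ± 4.90 (SD, n = 3; log2 fold change -1.77 ± 0.51, adjusted p = 0.0440). The call held without replicate 1 of A375 neg and was lost on leaving out any of the 5 other libraries (adjusted p 0.0682 to 0.159). ALK had 9 to 27 counts (log2 fold change 0.38 ± 0.43, adjusted p = 0.602). NTRK3 and LTK had at most 4 and 7 counts and were not tested.

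GAS6, the vitamin K-dependent ligand of TYRO3 and MERTK in this set, rose. AXL was left out of the set and was not read beside GAS6. GAS6 had 160, 183 and 149 counts in the controls and 250, 304 and 275 in the knockout, with a wide gap between the groups. It rose in normalized counts from 157 ± 14 to 290 ± 24 (SD, n = 3), 1.85-fold (log2 fold change 0.89 ± 0.14, adjusted p = 0.00218). GAS6-AS1, antisense to GAS6 over 25196 bases, averaged 18.5 counts.

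TYRO3, a TAM receptor, had 1564, 1704 and 1506 counts in the controls and 1616, 1885 and 1819 in the knockout. After normalization the groups did not overlap, and the log2 fold change of 0.29 ± 0.07 passed the test (adjusted p = 0.0198, up to 0.0856 in the alternatives) but not the fold limit. MERTK, which clears dying cells in macrophages, had at most 18 counts and was not tested.

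Receptors were then set beside their ligands. Of 31 pairs written from general knowledge, 17 had both genes tested, and these share genes. Both were called in 1 pair, BDNF with NTRK2, each lower. NTRK2 passed the low-count filter only with the controls, in which it was higher. The ligand alone was called in 7 pairs, 6 of them with a higher PDGF, FGF5 or GAS6 and 1 with a lower WNT5A, each beside a receptor that was not called. The receptor alone was called in 4 pairs, those of KDR and FLT1 with VEGFA, VEGFB or VEGFC, and neither in 5. PGF, which was not among the pairs, also binds FLT1, and the 2 were called in opposite directions, PGF higher and FLT1 lower. FGFR2, which was called higher, and AXL, which was left out of the set, were not among the pairs either. These counts therefore depend on which pairs were written.

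**Figure D4:**
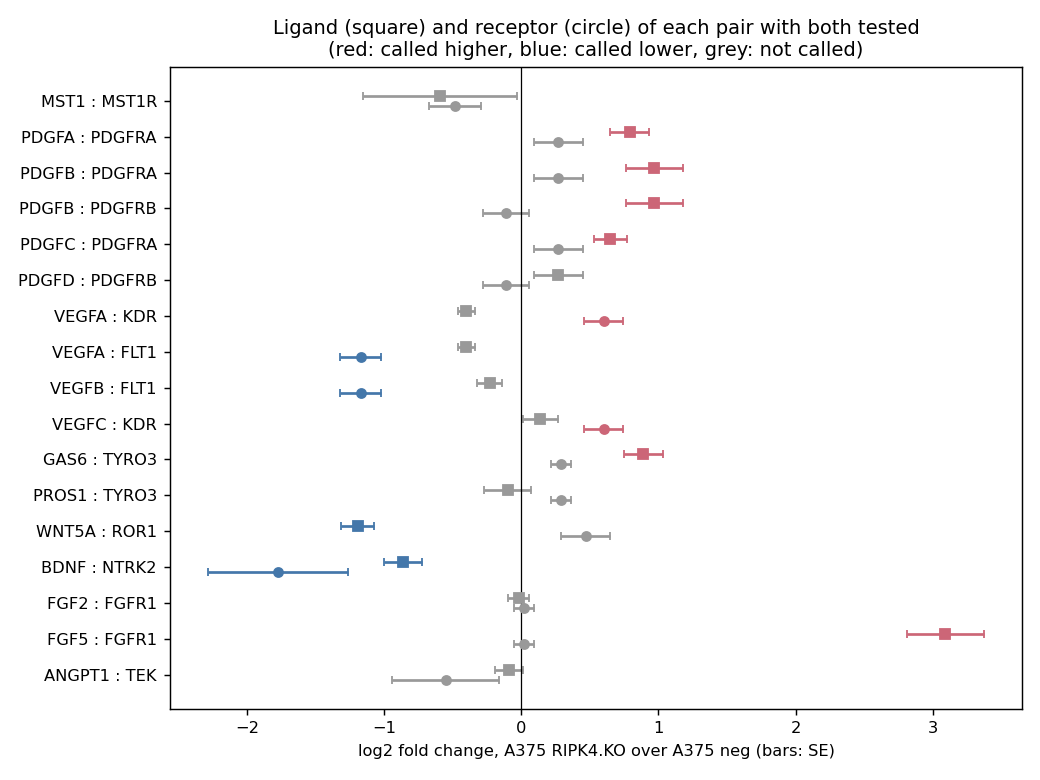
Log2 fold change with SE of the ligand (square) and the receptor (circle) in the 17 pairs with both genes tested, A375 RIPK4.KO over A375 neg. PDGFA, PDGFB, PDGFC, GAS6 and FGF5 lie right of their receptors, and BDNF and NTRK2 both lie left of 0.

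Other ligands of these receptors were read from a list of 36 genes, of which 20 were listed and 12 tested. Of the 12, 3 were called higher and 3 lower, where over all genes tested 9.04% were called, 4.39% higher and 4.65% lower. The list was chosen with earlier results of these data known, so these counts are a description only. PGF, the placental growth factor that binds FLT1, had 200, 242 and 252 counts in the controls and 389, 486 and 382 in the knockout, all higher (log2 fold change 1.0 ± 0.13, adjusted p = 0.000974). VEGFA, the ligand of KDR and FLT1, had 1487, 1608 and 1591 counts in the controls and 1007, 1091 and 1137 in the knockout. Its log2 fold change of -0.40 ± 0.06 (adjusted p = 0.00174) was under the fold limit. Per kb of exon, VEGFA was 2.61 to 3.07 times PGF in the controls and 0.927 to 1.23 times in the knockout. In raw counts it was 6.31 to 7.43 times PGF in the controls and 2.24 to 2.98 times in the knockout. How the levels of these genes compare therefore depends on the exon lengths used.

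GDNF, which signals through RET with a GFRA co-receptor, had 59, 30 and 31 counts in the controls and 94, 84 and 95 in the knockout (log2 fold change 1.31 ± 0.30, adjusted p = 0.0180). The call was lost without replicate 2 or 3 of A375 neg or replicate 3 of A375 RIPK4.KO (0.0553 to 0.0734). GFRA1, its co-receptor, had 6, 23 and 4 counts in the controls and 82, 80 and 114 in the knockout. It passed the filter through the knockout libraries, and its log2 fold change was 3.19 ± 0.50 (adjusted p = 0.00242), which became 4.27 without replicate 2 of A375 neg, the control library with 23 counts. BDNF, the ligand of NTRK2, fell from 295, 377 and 292 counts to 155, 149 and 178 (log2 fold change -0.86 ± 0.14, adjusted p = 0.00279).

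MDK (midkine) and PTN (pleiotrophin), related heparin-binding cytokines described as ligands of ALK, went opposite ways. MDK rose from 353, 419 and 401 counts to 565, 692 and 663 (log2 fold change 0.85 ± 0.09, adjusted p = 0.000262). PTN fell from 55, 80 and 95 counts to 18, 26 and 35 (log2 fold change -1.40 ± 0.30, adjusted p = 0.0116), a call lost without replicate 3 of A375 neg (0.0542). WNT5A, which binds ROR1 and is known for its part in melanoma cell invasion, had 2015, 2216 and 2600 counts in the controls and 906, 764 and 1056 in the knockout. All 3 knockout libraries were below the controls (log2 fold change -1.19 ± 0.12, adjusted p = 0.000182).

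Co-receptors and ligand-binding proteins made a list of 16, with 13 listed and 11 tested, of which 2 were called higher and 4 lower (54.5%, against 9.04% of all genes tested). Of these 6, GFRA1, FGFBP1 and FGFBP2 passed the low-count filter only through the group in which they were higher. The 54.5% includes them, and the list was chosen with earlier results of these data known. Their calls and that share are therefore given as a description only. NRP1, which presents VEGFA to KDR, had 2671, 2928 and 3050 counts in the controls and 1143, 1223 and 1370 in the knockout, 2.11-fold lower (log2 fold change -1.08 ± 0.07, adjusted p = 1.07e-05). NRP2, its relative with a preference for VEGFC, had a log2 fold change of -0.33 ± 0.06 (adjusted p = 0.00395), under the fold limit. Per kb of exon, NRP1 was 1.22 to 1.27 times NRP2 in the controls and 0.727 to 0.767 times in the knockout.

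FGFBP1 and FGFBP2 are the secreted FGF-binding protein 1, which frees FGFs from the matrix, and its relative. FGFBP1 had 31, 38 and 40 counts in the controls and 2, 5 and 2 in the knockout (log2 fold change -3.41 ± 0.43, adjusted p = 0.000705). FGFBP2 had 44, 49 and 29 counts in the controls and 10, 8 and 4 in the knockout (log2 fold change -2.31 ± 0.42, adjusted p = 0.00491). Both passed the filter through the A375 neg libraries.

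The syndecans, heparan sulfate proteoglycans that hold FGFs at the cell surface, split. SDC2 rose from 526, 467 and 543 counts to 889, 1070 and 1014 (log2 fold change 1.08 ± 0.10, adjusted p = 9.71e-05). SDC4 fell from 5775, 6314 and 6619 counts to 2802, 3082 and 3495 (log2 fold change -0.86 ± 0.07, adjusted p = 6.25e-05). SDC1 and SDC3 did not pass the test, at 0.15 and -0.13.

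**Figure D5:**
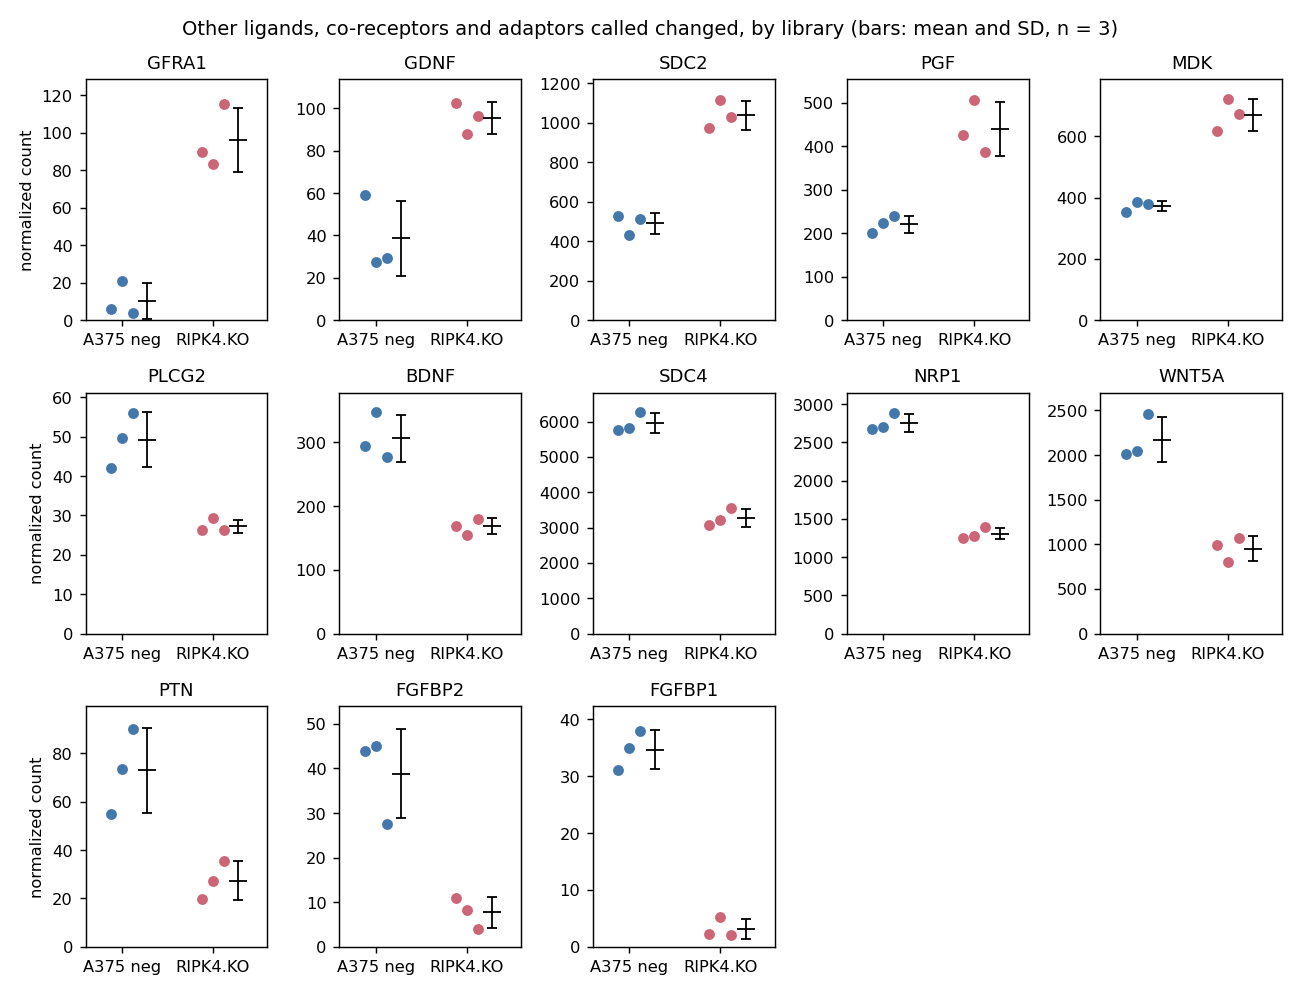
Normalized count per library of the 13 called genes among other ligands, co-receptors and adaptors, with the mean and SD of 3 libraries per group, each axis starting at 0. GFRA1, GDNF, SDC2, PGF and MDK are higher in every knockout library than in any control, and the other 8 are lower.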

How the data were processed

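Poly(A) RNA was sequenced by the authors as strand-specific paired-end libraries of 3 A375 neg and 3 A375 RIPK4.KO samples. The raw counts per gene, deposited as whole numbers, were made with cutadapt, HISAT2 and HTSeq on GRCh38.p13 per the submitters' processing notes, which give no versions; the deposited normalized counts, a signal that the authors scaled with 1 factor per library, served only to check the raw counts. The deposited fold changes and p-values of the authors' DESeq2 comparison were not used.

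Raw counts were tested in R 4.3.3 with edgeR 4.0.16 (TMM, filterByExpr with a minimum of 10 counts, quasi-likelihood test, no covariate; p-values adjusted by Benjamini-Hochberg across the 14443 genes that passed). Every adjusted p in the text comes from that fit unless another is named. Normalized counts are raw counts divided by the TMM-scaled library size relative to the mean size. The level per kb uses the exon length from GENCODE 29, which 82.7% of listed genes had. This length is the union of all exons annotated for a gene and can exceed that of any single transcript. Comparisons of level between genes depend on it. Totals of 21882863 to 26694140 counts set the precision, which for low genes is limited by counting error. The floor of 3 counts per library covers that error only, and the SE and SD include the spread between replicates. Every called gene, every other gene of the set and every called gene of 3 further lists is named. The genes and lists were chosen with earlier results of these data known. Alternatives were DESeq2 1.42.0, its size factors in edgeR, no filter, a minimum mean of 50 counts, a replicate block, a length trend removed, each library left out, and other fold limits. Same-numbered replicates were not paired (correlations of their deviations 0.082, 0.036 and -0.012). On simulated counts for this comparison (14443 genes), edgeR recovered 60 of 100 genes changed 2-fold and 91 of 100 changed 4-fold, with 13 false calls. These numbers count an adjusted p below 0.05 without the fold limit.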

Additional observations from a re-analysis of the deposited data

How the results depend on the processing

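The count of 12 changed receptors and ligands lay between 10 and 13 with DESeq2, DESeq2's size factors, no low-count filter, a minimum mean of 50 counts, or a length trend removed, was 14 without a fold limit, and was 2 at a log2 fold change beyond 1.5. It was 6 to 11 on leaving out 1 library. Of the 12, FGF5, FGF13, FLT1, DDR2, PDGFA and GAS6 kept their call in all 12 alternative fits, and FGFR2, KDR, NTRK2, PDGFB, PDGFC and KITLG lost it in at least 1. Over all genes, 1306 calls became 2403 without a fold limit and 465 beyond 1.5 on the log2 scale, and 1059 to 1336 on leaving out 1 library. RIPK4 kept its direction and call throughout, from -2.80 to -2.59.

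With the replicate number as a block, 1266 genes and 10 of the set were called, FGFR2 and NTRK2 (adjusted p = 0.0541 each) losing the call. FGFR1, at 0.02, ranged from -0.03 to 0.05 on leaving out 1 library, below 0 without replicate 1 of A375 neg (-0.03) and without replicate 2 of A375 RIPK4.KO (-0.01). NTRK2 and FGFR2, which averaged 20 and 26 raw counts per library, rest on few reads, and the cause of the changes was not tested.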

Other observations

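Intracellular adaptors, the proteins that carry the signal from the receptors, were a list of 21 genes, all listed and 19 tested. Of the 19, 1 was called (5.26%, against 9.04% of all genes tested). It was PLCG2, a phospholipase C-gamma that is mainly used by leukocytes, with 42, 54 and 59 counts in the controls and 24, 28 and 26 in the knockout (log2 fold change -0.85 ± 0.25, adjusted p = 0.0449 by edgeR's quasi-likelihood test). Its call was lost in 10 of 11 alternatives (adjusted p up to 0.149). GAB2, a docking protein, had 1356, 1356 and 1319 counts in the controls and 842, 852 and 811 in the knockout, a log2 fold change of -0.55 ± 0.07 (adjusted p = 0.000899) that was under the fold limit. SOS2 and RASA1, an exchange factor and a GTPase-activating protein of RAS, stood at -0.51 and -0.37 (adjusted p = 0.0289 and 0.0172) and NCK2, an adaptor to the actin cytoskeleton, at 0.35 (adjusted p = 0.0340), likewise under the limit. GRB2, SHC1, PTPN11 and PLCG1, the most abundant of the list by counts, lay between -0.03 and 0.04.

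Markers of other cell types were low or mixed. Of 6 leukocyte markers 4 were listed, with a summed level of 1.63 to 2.05 CPM in A375 neg and up to 0.802 CPM in A375 RIPK4.KO. Most of it in the controls was LYZ (38, 36 and 37 counts). In the knockout LYZ had 13, 0 and 3 counts, and in replicate 3 CD14 had more, 5. Of 6 keratinocyte markers 3 were listed, and they summed to 71.5 to 75.2 CPM in A375 neg and 53.3 to 66.2 CPM in A375 RIPK4.KO. KRT10, the most abundant of them, had 1287 to 1420 counts in the controls and 1138 to 1394 in the knockout (log2 fold change -0.01, adjusted p = 0.976), and KRT5 had at most 11 counts and was not tested. KRT14 had 461, 607 and 504 counts in the controls and 121, 158 and 147 in the knockout (log2 fold change -1.75, adjusted p = 3.46e-05). The fibroblast and pericyte list summed to 503 to 574 CPM and 374 to 420 CPM, nearly all of it CSPG4, which melanoma cells express themselves.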
